A study of Mus musculus with 6 samples.

Results

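The genes described here are 10 markers of pericytes and vascular smooth muscle cells, the mural cells that wrap blood vessels: Rgs5, Kcnj8, Abcc9, Cspg4, Notch3, Acta2, Myh11, Tagln, Cnn1 and Mylk. They were taken by symbol from the count table of RNA that had been sequenced from synovial fibroblasts, and all 10 were found among its 24348 genes. The libraries came from adult wild-type C57BL/6 mice, in which the whole synovium (the lining tissue of the joint) was dissected, digested with collagenase and sorted by flow cytometry for fibroblasts. Mice had received immune complexes (IC, antibody bound to its antigen) by the intravenous route in 3 libraries and vehicle in the other 3, and the groups shared strain, tissue and sort. The gate that defined a fibroblast, the time from injection to tissue collection and the number of mice behind each library are not given in the sources used here, so p-values measure the spread between these libraries, which may be partly technical.

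Pericytes cover capillaries and smooth muscle cells ring arterioles, and both regulate vessel tone and support the endothelium. Smooth muscle contracts when myosin light chain kinase, activated by calcium and calmodulin, phosphorylates the regulatory light chain of myosin and lets it pull on actin filaments. Contractile genes of smooth muscle are commonly controlled by serum response factor, which binds a DNA element called the CArG box, and signalling from endothelial Notch ligands to Notch3 is a known requirement of the mural identity. Some of these genes are also transcribed outside mural cells, for example in activated fibroblasts, and in bulk libraries a lower number of cells of a type and less RNA per cell cannot be told apart.

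Promoter sequence was available for 8 of the 10 genes in RefSeq (build GRCm38.p6), as 300-base windows around the transcription start. No entry was matched for Tagln and Myh11. Acta2 and Mylk are printed to set side by side contractile genes whose log2 fold changes had opposite signs. Each run gives the 250 bases before the start, 5′ to 3′ on the strand of the gene, and capitals mark bases that matched the CArG box with 1 mismatch allowed. The Acta2 run is chr19:34255374-34255623 on the minus strand and the Mylk run is chr16:34784700-34784949 on the plus strand. For both genes the RefSeq start lay inside the longer gene span of GENCODE M21. That span begins at 34255590 for Acta2, within the printed run. For Mylk it begins at 34745210, far upstream of the run, so the Mylk run precedes an internal start. The 5′ end of the longer Mylk span was not searched.
Acta2: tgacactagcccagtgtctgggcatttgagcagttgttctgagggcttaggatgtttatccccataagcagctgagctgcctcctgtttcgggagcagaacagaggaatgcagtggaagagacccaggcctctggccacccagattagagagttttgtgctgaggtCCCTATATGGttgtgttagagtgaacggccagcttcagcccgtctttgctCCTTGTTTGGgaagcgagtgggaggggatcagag
Mylk: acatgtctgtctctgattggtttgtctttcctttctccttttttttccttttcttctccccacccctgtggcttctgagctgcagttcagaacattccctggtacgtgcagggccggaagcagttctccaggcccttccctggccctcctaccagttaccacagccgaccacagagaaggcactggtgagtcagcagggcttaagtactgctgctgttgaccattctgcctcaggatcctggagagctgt
The Acta2 window held CCCTATATGG from position −84 and CCTTGTTTGG from position −34, counted from the start. No CArG match was found in the Mylk window. Cspg4 had 2 overlapping matches and Kcnj8 had 1, whereas Rgs5, Cnn1, Abcc9 and Notch3 had none. Every match had 1 mismatch, and the element reads alike on both strands. Of 32851 RefSeq promoter windows of this length, 1.63% held an exact CArG box and 21.1% held one with at most 1 mismatch. A match is a string of letters in a window and does not show that the factor binds there.

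All 10 genes passed the filter on low counts. Between the IC and vehicle libraries, 2 of the 10 differed by the Wald test of DESeq2 at an adjusted p under 0.05. Mylk rose and Myh11 fell. Whether the RNA of this kinase and this heavy chain came from the same cells was not tested. Over all 19925 genes tested, DESeq2 called 2.10% in either direction, 1.03% higher and 1.07% lower. With the quasi-likelihood test of edgeR none of the 10 was called, against 0.186% of all genes, and 4 of the 10 had an unadjusted p under 0.05 with either tool. The background of unadjusted p under 0.05 was 9.80% with DESeq2 and 1920 of the 19925 genes with edgeR. The 4 genes were Mylk, Myh11, Acta2 and Notch3. The log2 fold change lay below 0 for 7 of the 10 genes, with a median of −0.24, and for 50.4% of all genes, with a median of −0.0019. Cnn1 was too low for DESeq2 to assign an adjusted p.

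**Figure D1:**
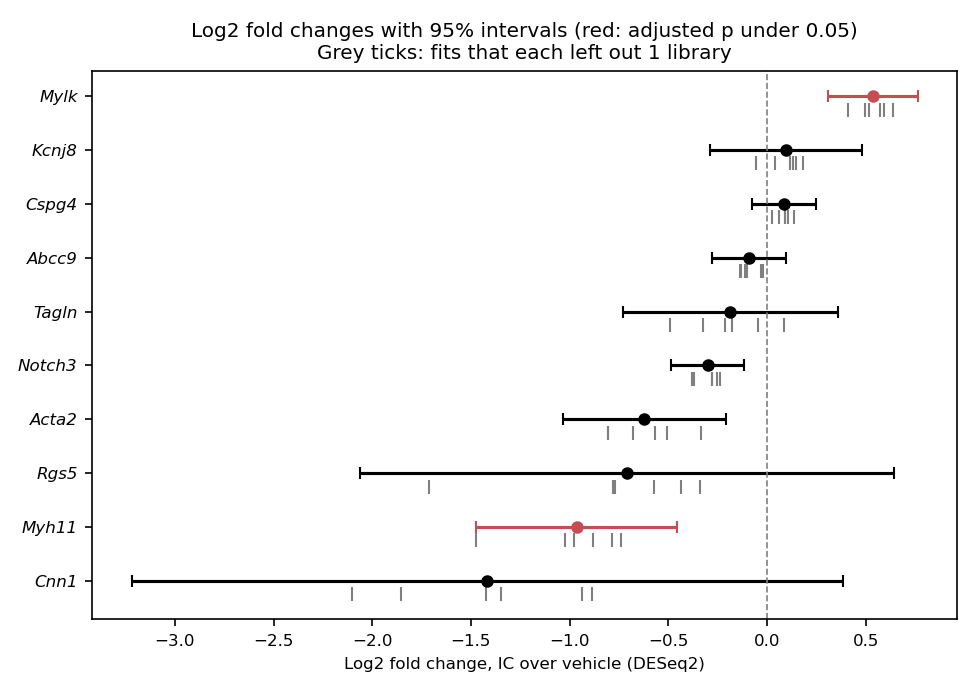
Log2 fold change of IC over vehicle for each of the 10 genes (x axis) with its 95% interval from DESeq2. Red marks Mylk (0.54) and Myh11 (−0.96), the genes with an adjusted p under 0.05, and grey ticks mark fits that left out 1 library each: those of Tagln and Kcnj8 fall on both sides of 0.

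Among the contractile genes, Mylk was the one with higher RNA after IC. Mylk (chr16:34745210-35002420, plus strand, GRCm38) encodes the myosin light chain kinase, which switches smooth muscle myosin on and is also found in non-muscle cells. Its normalized counts were 6335, 6162 and 5538 in IC replicates 1, 2 and 3 and 3400, 4696 and 4340 in vehicle replicates 1, 2 and 3. Every IC library lay above every vehicle library, a separation seen in the same direction for 8.09% of all genes. The mean of the IC group was 6012 ± 419 and that of the vehicle group 4145 ± 670 (SD, n = 3 each), a ratio of 1.45. By DESeq2 the log2 fold change was 0.54 (SE 0.116, 95% interval 0.31 to 0.76), with an adjusted p of 0.000547. The call held in each of the 6 fits that left out 1 library, with log2 fold changes of 0.41 to 0.64 and DESeq2 adjusted p of 8.22e-05 to 0.0302. It was lost with edgeR (adjusted p 0.0870) and with limma-voom (0.0619). The exons of Mylk (11263 bases) overlap those of genes on the opposite strand by 772 bases, summed gene by gene. The strand setting of the counting is not given in the sources used here.

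Myh11, the myosin heavy chain of smooth muscle (chr16:14194535-14291372, minus strand), was lower after IC. IC replicates 1, 2 and 3 had 699, 320.4 and 293 normalized counts, and vehicle replicates 1, 2 and 3 had 835, 943 and 778. The groups did not overlap, as for 7.67% of all genes with IC lower, although IC replicate 1 was closer to the lowest vehicle library than to the other IC libraries. Means were 437 ± 227 and 852 ± 83.6 (SD, n = 3 each), a ratio of 0.513. The log2 fold change was −0.96 (SE 0.26, 95% interval −1.47 to −0.45) and the DESeq2 adjusted p 0.0131. This call rested on the full set of libraries. Without IC replicate 1 the log2 fold change was −1.48 and the DESeq2 adjusted p 6.47e-12, but the call was lost when IC replicate 2 (0.225) or 3 (0.193) was left out, and equally when vehicle replicate 1 (0.0664), 2 (0.189) or 3 (0.122) was. Of the 10 other alternatives, 7 kept it. It was lost with edgeR (adjusted p 0.237), limma-voom (0.0855) and 1 surrogate variable in DESeq2 (0.584).

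The RNA ratio of the kinase to the heavy chain restates these differences for each library. Per exon length, Mylk was 6.12, 12.98 and 12.75 times Myh11 in IC replicates 1, 2 and 3. In vehicle replicates 1, 2 and 3 it was 2.75, 3.36 and 3.76 times Myh11. The ratio had to be higher in all IC libraries than in any vehicle library, since Mylk was higher and Myh11 lower in each. IC replicate 1 was nearest to vehicle. No test was run on this ratio, since its genes were picked from their calls.

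Acta2 (chr19:34241090-34255590, minus strand) encodes smooth muscle α-actin, the thin filament of contractile mural cells and of myofibroblasts. It had 904, 606 and 674 normalized counts in IC replicates 1, 2 and 3, and 814, 1520 and 1023 in vehicle replicates 1, 2 and 3. IC replicate 1 lay above vehicle replicate 1, so the groups overlapped, and vehicle replicate 2 stood above all other libraries. The means of 728 ± 156 and 1119 ± 363 (SD, n = 3 each) corresponded to a DESeq2 log2 fold change of −0.62 (95% interval −1.04 to −0.21) and an adjusted p of 0.0954. Without vehicle replicate 1 the log2 fold change was −0.81 and the DESeq2 adjusted p was 0.0118, whereas no other left-out library and no other alternative gave a call.

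Tagln and Cnn1, which encode the actin-binding proteins transgelin and calponin 1, did not pass the test. Tagln (chr9:45929619-45936058, minus strand) had 495, 370.0 and 209 normalized counts in IC replicates 1, 2 and 3 and 412, 482 and 325 in vehicle replicates 1, 2 and 3. IC replicate 1 was the highest and IC replicate 3 the lowest of the 6 libraries, and the groups overlapped. Its log2 fold change was −0.19 with a 95% interval of −0.73 to 0.36 (DESeq2 adjusted p 0.915), and it turned to 0.09 without IC replicate 3. The exons of Tagln (1988 bases) overlap those of Pcsk7, a proprotein convertase gene, and Gm48529 on the opposite strand. The overlaps sum to 1349 bases, in which a base shared with both genes counts for each. Pcsk7 had 1966 ± 242 normalized counts in the IC group and 1956 ± 135 in the vehicle group (SD, n = 3 each), and how counting divided the shared bases was not tested.

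Cnn1 (chr9:22099216-22109630, plus strand) was close to the limit of detection. It had 18, 11 and 3 raw counts in IC replicates 1, 2 and 3 and 11, 51 and 27 in vehicle replicates 1, 2 and 3, among total counts of 40114331 to 56714304 per library. The groups overlapped, and vehicle replicate 1 was as low as the IC libraries. DESeq2 gave a log2 fold change of −1.42 with a 95% interval of −3.22 to 0.39, so the interval covered both no difference and a large decrease at this depth. The adjusted p with edgeR was 0.694.

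**Figure D2:**
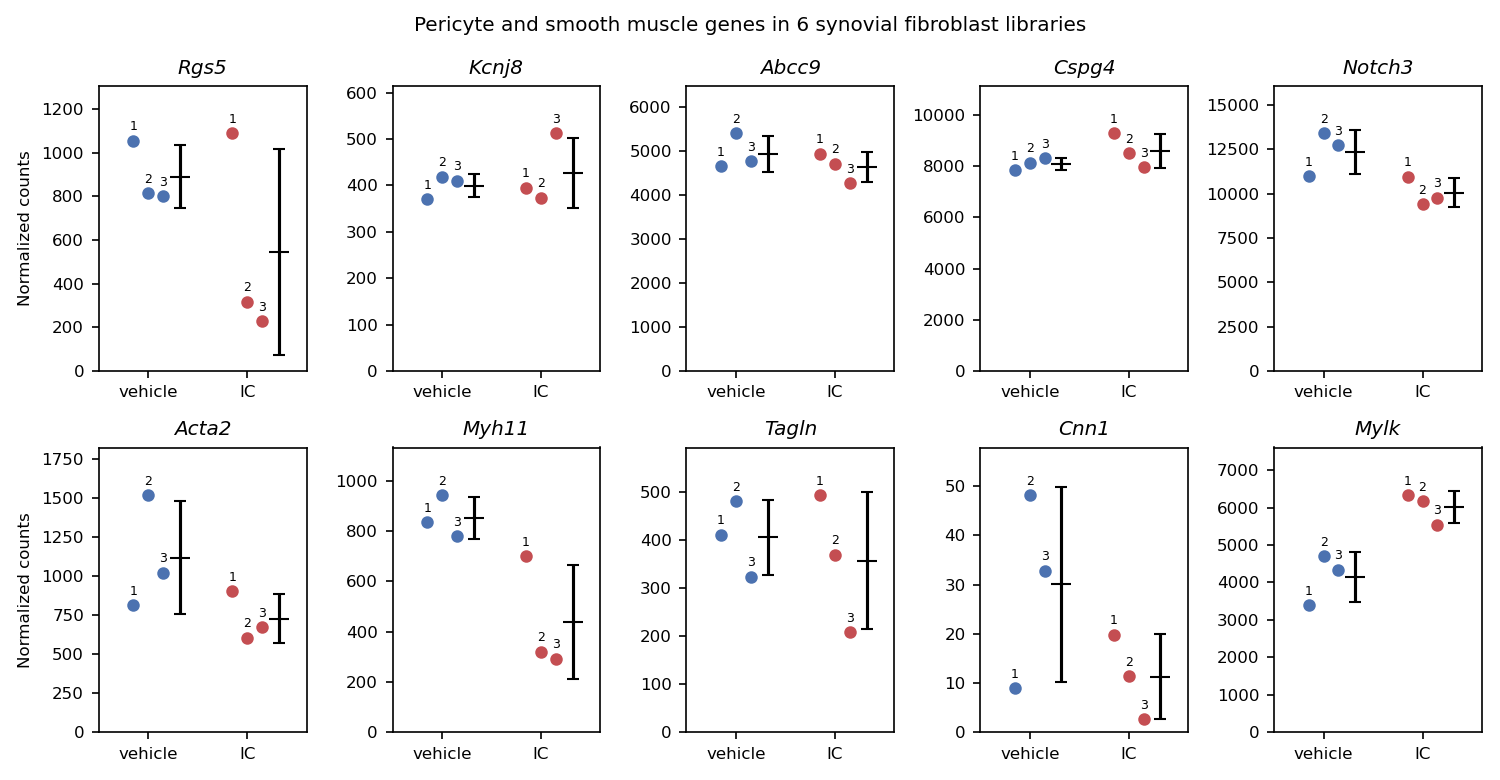
Normalized counts (y axis, linear from 0, a separate scale per gene) of the 10 genes in vehicle (blue) and IC (red) libraries, with replicate numbers above the points and the mean ± SD beside them. The red points of Mylk lie above all blue points and those of Myh11 and Notch3 below, whereas Rgs5 shows 1 IC library at the vehicle level (1088) and 2 far below it (316 and 228).

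Rgs5, which encodes a regulator that shortens G protein signalling and is a leading pericyte marker, had the widest relative spread of the 10 genes within the IC group. Rgs5 (chr1:169655501-169695813, plus strand) had 1088, 316 and 228 normalized counts in IC replicates 1, 2 and 3, and 1055, 813 and 800.1 in vehicle replicates 1, 2 and 3. IC replicate 1 was the highest of all 6 libraries, and IC replicates 2 and 3 were the lowest. Means were 544 ± 473 and 889.5 ± 144 (SD, n = 3 each), a coefficient of variation of 87.0% after IC and 16.2% after vehicle. The log2 fold change of −0.71 had a 95% interval of −2.06 to 0.64 and a DESeq2 adjusted p of 0.835. Without IC replicate 1 it was −1.71 with a DESeq2 adjusted p of 1.4e-10, and no other alternative gave a call. Whether Rgs5 differed between the groups therefore depended on that library. Summed over 16 endothelial markers, IC replicates 1, 2 and 3 had 369, 383 and 275 CPM (counts scaled to the library total), and over 8 Schwann cell markers they had 136, 71.7 and 52.4. The part of either cell type in the Rgs5 values was not tested.

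Notch3 (chr17:32120820-32166852, minus strand), the receptor through which endothelial ligands act on mural cells, was the most abundant of the 10 genes per exon length. Which of the sorted cells its RNA came from was not tested. Notch3 had 10963, 9401 and 9788 normalized counts in IC replicates 1, 2 and 3 and 10983, 13402 and 12741 in vehicle replicates 1, 2 and 3. All IC libraries lay below all vehicle libraries, as for 7.67% of all genes, but IC replicate 1 and vehicle replicate 1 were nearly equal. Means were 10051 ± 814 and 12375 ± 1250 (SD, n = 3 each), and the log2 fold change was −0.30 (95% interval −0.49 to −0.11). The DESeq2 adjusted p of 0.0559 missed the threshold. It was 0.0480 with TMM scaling, 0.0340 with total-count scaling and 0.0391 among genes with a mean of at least 100. Leaving out IC replicate 1 gave 0.0310 and leaving out vehicle replicate 1 gave 0.00122, which made 5 calls in 16 alternatives. The other 11 had adjusted p of 0.0545 to 0.367, among them edgeR (0.266), limma-voom (0.218), the replicate block in DESeq2 (0.186) and 1 surrogate variable in DESeq2 (0.241).

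Cspg4, Kcnj8 and Abcc9 did not pass the test, and their groups overlapped. Cspg4 (chr9:56865033-56899870, plus strand) encodes NG2, a surface proteoglycan of pericytes and of other mesenchymal cells. It had 9274, 8510.0 and 7953 normalized counts in IC replicates 1, 2 and 3 and 7835, 8126 and 8312 in vehicle replicates 1, 2 and 3. IC replicate 1 was the highest and vehicle replicate 1 the lowest library. The log2 fold change was 0.08 with a 95% interval of −0.08 to 0.25 (DESeq2 adjusted p 0.838), the shortest interval of the 10 genes.

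Kcnj8 and Abcc9 lie next to each other on chromosome 6 and encode the pore (Kir6.1) and the regulatory subunit (SUR2) of the vascular ATP-sensitive potassium channel. Kcnj8 (chr6:142564837-142571614, minus strand) had 394.5, 373 and 512 normalized counts in IC replicates 1, 2 and 3 and 371, 418.5 and 409.8 in vehicle replicates 1, 2 and 3. Abcc9 (chr6:142587862-142702315, minus strand) had 4949, 4719 and 4273 in the IC libraries and 4656, 5407 and 4771 in the vehicle libraries, in the same order. Both genes overlapped between groups, with Kcnj8 highest and Abcc9 lowest in IC replicate 3. The log2 fold changes were 0.10 for Kcnj8 (95% interval −0.29 to 0.48, DESeq2 adjusted p 0.947) and −0.09 for Abcc9 (−0.28 to 0.10, DESeq2 adjusted p 0.855). That of Kcnj8 was −0.06 without IC replicate 3. Per exon length, Abcc9 was 3.54 to 3.93 times Kcnj8 in the vehicle libraries and 2.54 to 3.85 times in the IC libraries.

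The levels of the 10 genes spanned a wide range per exon length, which is the scale on which genes can be compared. As RPKM, counts scaled to exon length and to the library total, vehicle means ran in descending order from Notch3 (31.7 ± 2.27) through Cspg4 (14.1 ± 0.234), Abcc9 (12.2 ± 0.754), Acta2 (10.5 ± 3.15) and Mylk (7.62 ± 1.02). Tagln (4.24 ± 0.807), Rgs5 (4.08 ± 0.792), Kcnj8 (3.25 ± 0.109), Myh11 (2.33 ± 0.211) and Cnn1 (0.225 ± 0.144) followed (SD, n = 3 each). Of the neighbours in this order, Abcc9 and Acta2, Acta2 and Mylk, and Tagln and Rgs5 differed by less than the larger of their SDs. Among tested genes with an exon length, Notch3 stood at the 94.1 percentile of mean RPKM, Cspg4 at 86.5, Abcc9 at 83.1, Mylk at 78.1 and Acta2 at 76.5. Tagln (57.6), Kcnj8 (53.8), Rgs5 (53.2), Myh11 (40.2) and Cnn1 (7.04) ranked lower.

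Acta2, Tagln, Cnn1 and Myh11 formed small shares of their protein families, whose most abundant members serve most cell types, whereas Mylk made up most of its own. Acta2 made up 0.754% to 1.57% of the summed RPKM of 6 actin genes, and Actb, the cytoplasmic β-actin, 82.4% to 83.0%. Tagln made up 2.72% to 6.80% of its family, against 92.5% to 96.8% for Tagln2. The share of Myh11 among Myh9, Myh10 and itself was 3.10% to 6.60% in the IC libraries and 7.28% to 8.12% in the vehicle libraries, without overlap. Non-muscle Myh10 was also lower after IC (DESeq2 log2 fold change −0.33, adjusted p 0.0494), whereas Myh9 differed by −0.03 on the log2 scale (DESeq2 adjusted p 0.973). Mylk formed 91.4% to 96.6% of the 4 Mylk genes, and Mylk2, the skeletal muscle kinase, 2.27% to 8.28%. Among Notch receptors Notch2 was the most abundant at 43.4 ± 2.71 RPKM in the IC group and 43.0 ± 3.03 in the vehicle group, above Notch3 at 25.9 ± 2.03 and 31.7 ± 2.27 (SD, n = 3 each). Read in the sense direction, at most 0.614% of the 50-base words in the transcripts of any of the 10 genes occurred in another gene. Words on the opposite strand were not compared, so this share leaves out the overlaps between strands. Beside Tagln and Mylk, Notch3 shares 488 of 8089 exon bases and Abcc9 158 of 8373 with genes on the opposite strand.

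**Figure D3:**
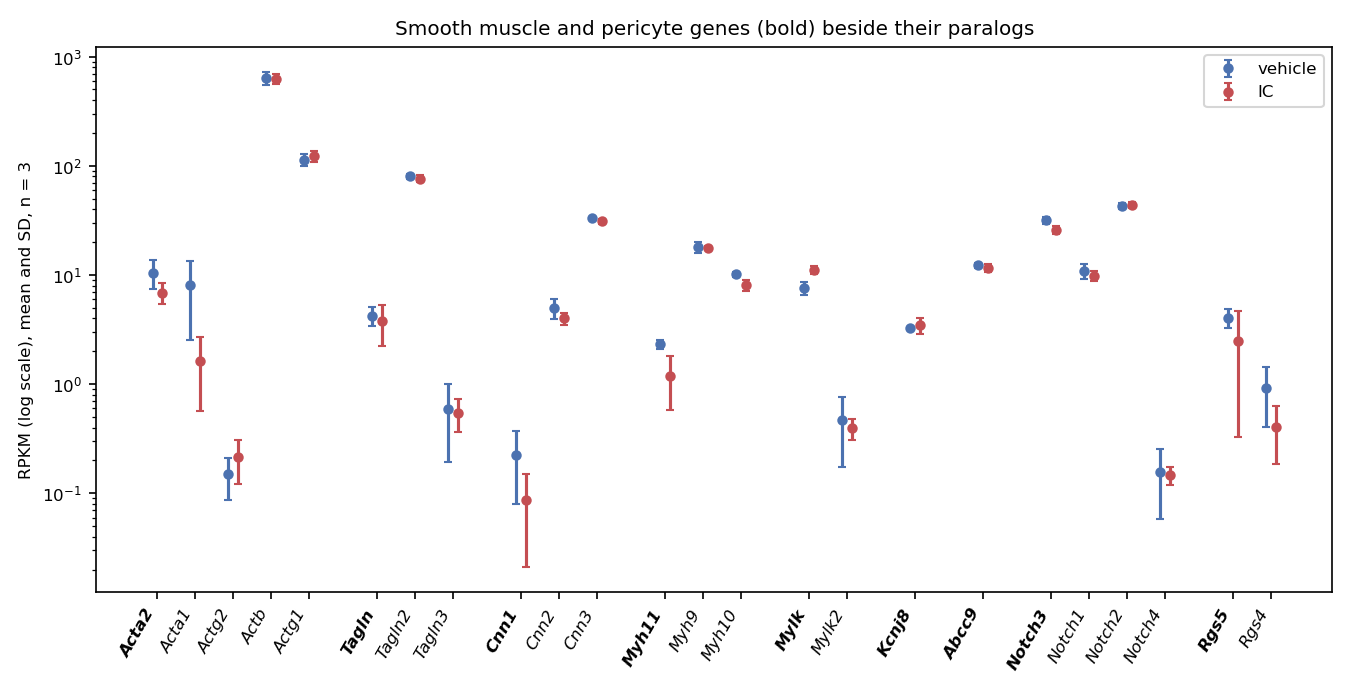
Mean RPKM ± SD (y axis, log scale, n = 3 per group) of the pericyte and smooth muscle genes (bold names) beside their paralogs, in vehicle (blue) and IC (red). Acta2, Tagln, Cnn1 and Myh11 lie well below Actb, Tagln2, Cnn3 and Myh9, and paralogs of very low level are left out of the plot.

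Most of the 10 genes shared an order of the libraries within each group. IC replicate 1 was the highest IC library for 9 of the 10 genes, and IC replicate 3 the lowest for 7. Among vehicle libraries, replicate 2 was the highest for 8 genes and replicate 1 the lowest for 7. The share of all genes with these orders was not computed, so the orders cannot be taken as particular to the 10 genes. For all of the genes except Mylk and Myh11, the range within one of the groups exceeded the difference between the group means. Summed over the 10 genes, the IC libraries had 609 to 731 CPM and the vehicle libraries 653 to 728, so the sum overlapped.

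**Figure D4:**
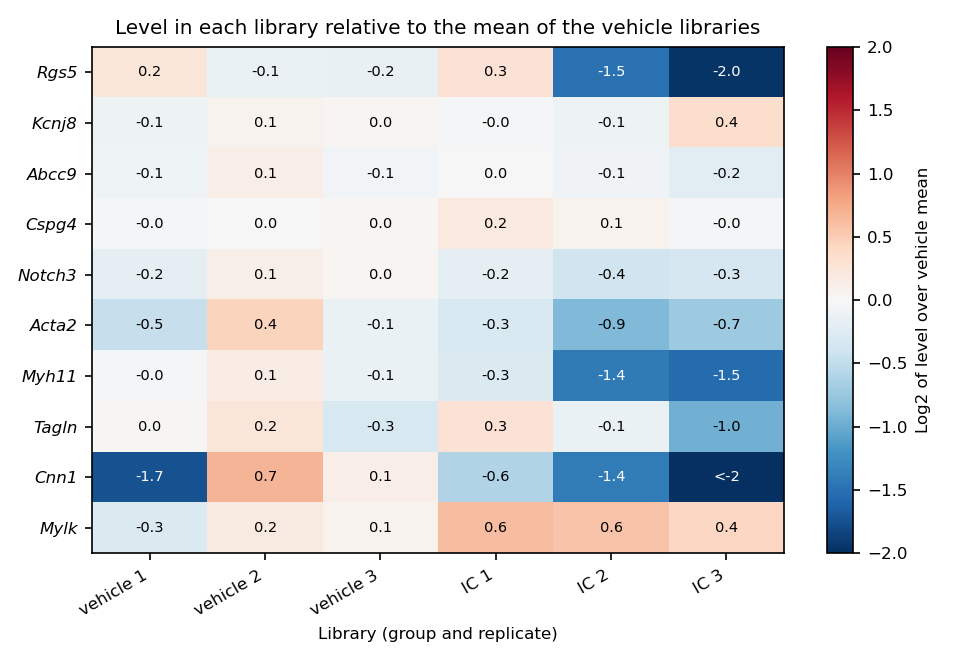
Log2 of the level of each gene (rows) in each library (columns) over the mean of the vehicle libraries, from blue (lower) to red (higher). Rgs5 and Myh11 are near the vehicle mean in IC replicate 1 and far below it in IC replicates 2 and 3, whereas Mylk is above it in all IC libraries.

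Markers of some other cell types also differed between the groups. Over all genes tested, DESeq2 called 1.07% lower and 1.03% higher. The sums of Schwann cell markers (52.4 to 136 CPM after IC, 54.3 to 107 after vehicle) overlapped between groups. So did those of macrophage and leukocyte markers (23.9 to 35.4 and 26.5 to 31.8), and DESeq2 called no gene of either list. The libraries were rich in fibroblast RNA. Summed over 9 fibroblast markers, the IC libraries had 44329 to 46047 CPM and the vehicle libraries 45237 to 55084, with overlap. Of these markers, DESeq2 called Prg4 higher and Col3a1 and Lum lower. Endothelial markers, which accompany mural cells in vessels, had log2 fold changes below 0 for 16 of 16 genes with a median of −0.50, and 3 were called lower by DESeq2. Their sum was 275 to 383 CPM after IC and 391.5 to 453 after vehicle, without overlap. Satellite cell markers (40.2 to 89.8 against 109.7 to 184.5, 3 of 7 called lower) and skeletal muscle markers (23.9 to 46.6 against 43.4 to 111, 5 of 14 tested called lower) pointed the same way as Myh11. Chondrocyte markers were higher in sum (721 to 826 against 469 to 684), as was Mylk, but 5 of the 7 tested had log2 fold changes below 0, with a median of −0.37. Comp, a matrix protein of cartilage and tendon, made up most of that sum, with 32217 ± 2182 normalized counts in the IC group and 24643 ± 6605 in the vehicle group (SD, n = 3 each). DESeq2 called no chondrocyte marker, and the 1 with an unadjusted p under 0.05 was Col2a1, the type II collagen gene, with a log2 fold change of −0.75. Both genes are named after their values were seen. Defining endothelial and satellite cell genes such as Pecam1 and Pax7 were detected in every library, and of the skeletal muscle list Pvalb and Myl1 were at 0 in IC replicate 3. edgeR called none of these markers. Its unadjusted p was under 0.05 for 7 endothelial, 7 satellite cell, 11 skeletal muscle and 2 chondrocyte genes. The same held for 4 fibroblast, 1 Schwann cell and 0 macrophage and leukocyte genes, and for 1920 of all 19925 genes tested. The part of these markers in the values of Myh11, Mylk and Rgs5 was not tested.

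Other pericyte genes gave 1 call among 18 tested, 2 of them without a DESeq2 adjusted p, against 2.10% of all genes. P2ry14, a receptor for UDP-sugars, had 439, 280.1 and 253 normalized counts in IC replicates 1, 2 and 3 and 898, 782 and 519 in vehicle replicates 1, 2 and 3. Every IC library lay below every vehicle library, as for 7.67% of all genes. P2ry14 fell by 1.18 on the log2 scale (DESeq2 adjusted p 0.000231, edgeR 0.0862). This call held in each of the 6 fits that left out 1 library. The list had 15 of 18 log2 fold changes below 0, with a median of −0.25. By DESeq2, 6 of its genes had an unadjusted p under 0.05, against 9.80% of all genes. Gja4 (connexin 37, also endothelial), Tbx18 (a T-box transcription factor) and Gucy1a1 (a subunit of the nitric oxide receptor) had log2 fold changes of −1.09, −0.29 and −0.26, with DESeq2 adjusted p of 0.0581, 0.246 and 0.296. Pdgfrb, the receptor that holds pericytes to vessels, is also a fibroblast gene and was abundant, with 20318 ± 1337 normalized counts in the vehicle group and 21722 ± 77.7 in the IC group (SD, n = 3 each). It is named from the list and was chosen after its values were seen.

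Other smooth muscle genes gave no call with DESeq2 or edgeR among 25 tested, against 2.10% and 0.186% of all genes. Their unadjusted p was under 0.05 for 7 with DESeq2 and 6 with edgeR, against 9.80% and 1920 of all 19925 genes. Of the 25 genes, 15 had log2 fold changes below 0, and the median was −0.11. DESeq2 gave 4 of the 25 no adjusted p, so it could not call them. Pdlim7, an actin-associated PDZ and LIM protein, had a log2 fold change of 0.23 (DESeq2 adjusted p 0.0870), and its relative Pdlim3 one of −1.23 (0.0988). That of Pcp4l1 was −1.14 (0.189). Pdlim7 was higher and Pdlim3 and Pcp4l1 lower in every IC library than in any vehicle library. The shares of all genes separated in this way were 8.09% higher and 7.67% lower. Leaving out 1 library gave a call to Pcp4l1 (without IC replicate 1), Pdlim3 (without IC replicate 2) or Pdlim7 (without vehicle replicate 1).

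Serum response factor, its cofactors and actin cytoskeleton genes gave 2 calls among 25 tested, against 2.10% of all genes. Actn1, which encodes the actin crosslinker α-actinin 1, had 2519, 3153 and 2633 normalized counts in IC replicates 1, 2 and 3 and 1895, 2103 and 1744 in vehicle replicates 1, 2 and 3. All IC libraries were above all vehicle libraries, as for 8.09% of all genes. Actn1 rose by 0.53 on the log2 scale (DESeq2 adjusted p 0.000963, edgeR 0.0836), with a call in all 6 fits that left out 1 library. The lower gene was Myh10, whose call was lost when replicate 2 or 3 of either group was left out. The median of the list was −0.03 with 14 of 25 below 0. Filip1l, Flna (filamin A, a crosslinker of actin filaments) and Ccn1 (a matrix-associated protein) had log2 fold changes of −0.33, 0.16 and 0.25, with DESeq2 adjusted p of 0.126, 0.317 and 0.347.

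In the Notch pathway, the protease gene Adam10 was the 1 called among 17 genes tested, against 2.10% of all genes. The list had a median log2 fold change of −0.07 with 11 below 0. Adam10, which cleaves Notch receptors at the cell surface, had 3658, 3497 and 3776 normalized counts in IC replicates 1, 2 and 3 and 4387, 4380.0 and 4611 in vehicle replicates 1, 2 and 3. The groups did not overlap, as for 7.67% of all genes with IC lower. Adam10 fell by 0.29 on the log2 scale (DESeq2 adjusted p 0.0266, edgeR 0.147). Its call was lost when IC replicate 1 or 2, or vehicle replicate 3, was left out. The target genes Hey1 and Heyl had log2 fold changes of −0.37 (DESeq2 adjusted p 0.273) and −0.33 (0.306), and Rbpj, the DNA-binding partner of the receptor, had 0.16 (0.285). The ligands Jag1, Jag2, Dll1 and Dll4 had log2 fold changes between −0.09 and 0.21, with no call.

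Among 1545 genes with a mean of at least 100 normalized counts that varied over the libraries, those most like Rgs5 and Myh11 were named by the Pearson correlation of log2(normalized count + 1) over the 6 libraries. Rgs5 was closest to Nppc (0.96), Fmn2 (0.94), Myh11 (0.94), Zfp580 (0.94) and Gm13340 (0.94). Myh11 was closest to Pthlh (0.99), Mtrf1 (0.99), Gm13340 (0.98), Nppc (0.98) and Fndc5 (0.97). The correlation of Acta2 was 0.62 with Rgs5 and 0.82 with Myh11, and that of Tagln was 0.79 and 0.70. These values describe 6 points that include the difference between groups, and the points share the spread in depth and in other cell types given above.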

How the data were processed

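Total RNA was sequenced from sorted synovial fibroblasts in 6 libraries, 3 per group, with group and replicate number read from the labels. The authors deposited raw counts per gene symbol, made by trimming with Trim Galore, aligning to mm10 with HISAT2 and counting with featureCounts. Versions, gene annotation and strand setting are not given in the sources used here. Labels and methods differ in the total RNA kit they name, and the methods mention sva without its step. The 6 files of single libraries were identical to their columns in the combined table.

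The test covered the 19925 of 24348 genes that reached 10 counts in 3 or more libraries. The 4423 genes left out held 0.0429% of counts, and 3870 of the genes tested received no adjusted p. The main test was the DESeq2 (1.42.0) Wald test with treatment as the term and default settings, in R 4.3.3. Calls were made at an adjusted p under 0.05 (Benjamini-Hochberg, with DESeq2 over the tested genes that received an adjusted p). Genes without one count as not called in all shares and list counts. Normalized counts are counts divided by the DESeq2 size factor, and fold changes are unshrunken. RPKM used merged GENCODE M21 exon lengths and total counts, with a length for 19608 tested genes.

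Alternatives were edgeR (4.0.16) quasi-likelihood, limma-voom (limma 3.58.1), TMM or total-count scaling, other count filters, DESeq2 run without independent filtering or without Cook's cutoff, a block for the replicate number, 1 sva (3.50.0) surrogate variable, and each library left out in turn. The test code was checked on simulated counts.

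The genes and lists were chosen with earlier results of these data known, so no list was tested as a whole. All 10 genes are named. Of each related list, called genes and the 3 with the smallest unadjusted p among the others with a mean of at least 100 normalized counts are named, and further genes are named from the lists as descriptions. The list genes Higd1b, Atp13a5, Kcnmb1, Kcna5, Ptprc, Adgre1, Tyrobp, C1qa, Cd3e and Matn1 were among those not found in the count table. Marker sums are in CPM of the total count. A pairing by replicate number was looked for in the correlation of same-numbered deviations from the group means.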

Additional observations from a re-analysis of the deposited data

How the results depend on the processing

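Of 159 alternative values for the 10 genes, 140 kept their direction and side of the threshold. These include values of genes that were not called in the main fit. A missing adjusted p, as for Cnn1 in the main fit, was taken as not called. Both reversals came on leaving out IC replicate 3, and over the left-out libraries the log2 fold change ranged from −0.49 to 0.0883 for Tagln and from −0.0567 to 0.18 for Kcnj8. DESeq2 called 419 genes in all, edgeR 37 (all among the 419), limma-voom 62, and the fits without 1 library 282 to 671. Of the 10 genes, edgeR and limma-voom called 0, 1 surrogate variable 1, and the fits without 1 library 1 to 4. In each of the other pericyte, actin and Notch lists, edgeR and limma-voom called 0. Other pericyte genes gave 2 calls with a mean of at least 100 or 1 surrogate variable, and 1 to 2 without 1 library. Without 1 library, other smooth muscle genes gave 0 to 1 calls, actin genes 1 to 3 and Notch genes 0 to 1. Actin genes gave 1 call with independent filtering off. The causes were not tested. Same-numbered libraries did not deviate together (r of −0.09, −0.16 and 0.03 over 13435 genes). No pairing by number was detected, and these correlations cannot exclude one. With the replicate block DESeq2 called 320 genes, 2 of the 10 genes, 1 actin gene and 0 Notch genes. Cnn1 gave no value under a mean of at least 100. With 3 libraries per group, the low counts of Cnn1 and the spread of Rgs5 limit what could be detected.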
